A study of Ovis aries with 56 samples.

Results

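The amygdala of sheep was examined for 5 genes of steroid synthesis and cortisol regeneration, of 831 genes named on the array: TSPO, CYP11A1, CYP17A1, CYP19 and HSD11B1. All non-control probes whose gene name, sequence hit or description in the array's annotation named one of them were taken, which gave 11 probes of 15008, on 15 spots. TSPO, CYP11A1, CYP17A1 and HSD11B1 each had 2 probes and CYP19 had 3. The probes of a gene are numbered by brightness, and probe 1 is the leading one. TSPO is listed on the array under its older name, peripheral-type benzodiazepine receptor, and CYP19 probe 1 was designed on a transcript of the 5′ untranslated region of aromatase.

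Steroid hormones are made from cholesterol, which must enter the mitochondrion before its side chain is removed to give pregnenolone. Further enzymes then turn this precursor into glucocorticoids, androgens and oestrogens, and some of these steps also take place in the brain. A target cell can set its own exposure as well, by regenerating cortisol from inactive cortisone or by turning testosterone into oestradiol. In the amygdala, a forebrain region that serves emotional and social behaviour, such conversion shapes how hormones from the gonads and the adrenal act.

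Left and right amygdala RNA came from 50-week-old same-sex twin sheep, 1 of each pair given goserelin, an agonist of the receptor for gonadotropin-releasing hormone (GnRHa), and the other left untreated. Implants of 3.6 mg were renewed at intervals of 4 weeks, from week 8 of life in males and from week 28 in females, so sex and the length of treatment go together. Each 2-colour array set 1 side of 1 animal against pooled amygdala RNA, and the values below are log2 ratios of sample to pool. Sex, treatment (control or GnRHa) and side defined 8 groups with 7 arrays apiece, and replicates were different animals. The pool was common to all arrays. A log2 difference between groups therefore compares 1 probe with itself, and levels of different probes cannot be ranked.

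Of the 56 arrays, 41 from 25 animals were used, because the added spike-in RNAs of 15 did not follow those of the rest, and 3 were multiplied by -1 because their spike-ins ran backwards. This left 5 arrays in each female group, 6 in each male GnRHa group, 5 of male control left and 4 of male control right. With so few arrays the precision is limited throughout. Female left arrays all carried the sample in Cy3 and female right arrays all in Cy5, whereas male arrays mixed the dyes on the left and, with GnRHa, on the right. The fitted dye term thus rests on male arrays. On a principal component analysis 4 arrays stood apart from the rest (female control left replicates 3 and 6, female GnRHa left replicate 6 and male GnRHa right replicate 7), and the called results are given with and without them. Astrocyte genes (GFAP, AQP4, SLC1A2) and the neuronal gene GRIN1 were measured on all 41 arrays, and no oligodendrocyte marker had a named probe.

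How well the 5 genes could be measured differed. TSPO, which encodes a protein of the outer mitochondrial membrane linked to cholesterol handling and widely used as a marker of glia, was the brightest. The authors' mean log2 brightness was 6.96 and 6.76 for its probes, above 80.7 and 77.5% of all probes, and both had a value on 41 arrays. HSD11B1, whose product regenerates cortisol from cortisone, lay at 5.99 (41 arrays) and 5.59 (40 arrays). CYP17A1, whose product makes androgen precursors, lay at 5.88 on 41 arrays for probe 1, which averages 5 spots, and at 5.43 on 26 arrays for probe 2. These 3 genes thus each had a probe measured on every array.

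The other enzymes were near the dim end. CYP11A1, the side-chain-cleaving enzyme that makes pregnenolone, had brightnesses of 5.35 and 5.34 and values on 23 and 26 arrays. CYP19 is aromatase, which makes oestrogens from androgens, and its probes lay at 5.45, 5.22 and 5.19 with values on 23, 23 and 29 arrays. Probes that lacked a value on an array averaged 5.38 against 6.31 for those that had one. A missing value therefore went with low brightness, and the values of CYP11A1 and CYP19 come from the arrays on which the signal could be read. No spot could be called above or below background. A probe was tested if every group held 2 or more values, which 9 of the 11 did. The second probes of CYP11A1 and CYP17A1 did not.

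**Figure D1:**
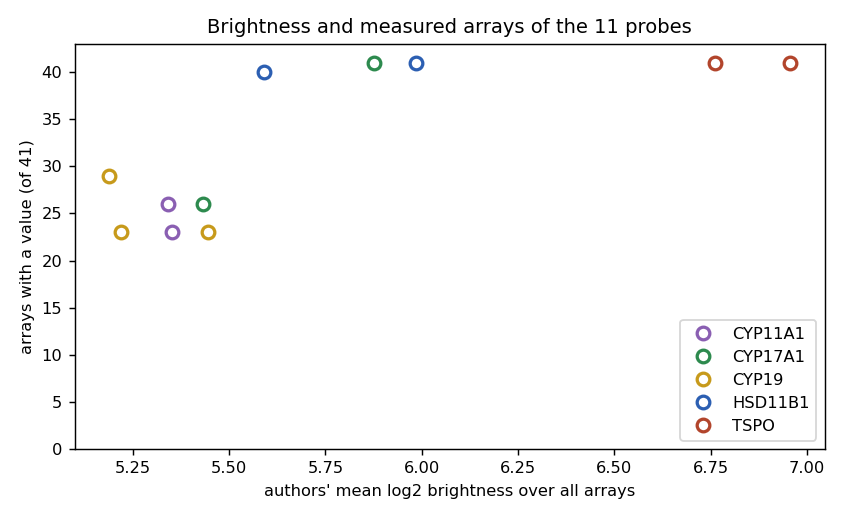
The authors' mean log2 brightness (x axis) is set against the number of arrays with a value, of 41 (y axis), for the 11 probes, coloured by gene. The probes of TSPO and HSD11B1 and probe 1 of CYP17A1 have values on 40 or 41 arrays, and the other 6 on 23 to 29.

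Probes of 1 gene did not always move together. Across 41 arrays the TSPO probes had a Pearson r of 0.90. For HSD11B1 r was 0.34 over 40 arrays, and for CYP17A1 it was 0.25 over 26. It was 0.34 over 14 arrays for CYP11A1 and 0.04 to 0.20 over 11 to 17 arrays for the pairs of CYP19 probes. These are descriptions over arrays that share animals and groups. Only the TSPO probes therefore give closely repeated readings of 1 transcript.

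The genes also differed in their spread between arrays. The SD over all arrays was 0.31 and 0.32 for TSPO and 0.22 for CYP17A1 probe 1, below the median SD of 0.45 over all tested probes. It was 0.52 and 0.78 for HSD11B1, 1.23 for CYP11A1 probe 1 and 0.90 to 1.20 for CYP19. The 5 spots of CYP17A1 probe 1 had a median SD of 0.32 within an array, and all 5 had a value on every array, while the 0.22 between arrays is the SD of their means.

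TSPO was higher in females than in males in the left amygdala, and no difference was called in the right. In untreated animals the left values of probe 1 were 0.24, 0.41, 0.43, 0.47 and 0.56 in females. In males they were -0.57, -0.34, -0.14, -0.09 and 0.25. The lowest female array lay just under the highest male array, which was the only male control left array in Cy5, and all others were separate. Female and male means were 0.42 ± 0.12 and -0.18 ± 0.31 (SD, n = 5 each). The log2 difference was 0.63 ± 0.17 (SE), a 1.54-fold higher value in females, and limma's p adjusted over all 12930 tested probes was 0.0237.

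TSPO probe 2 gave 0.15, 0.45, 0.45, 0.50 and 0.51 on the left of control females. The same probe gave -0.62, -0.19, -0.18, -0.12 and 0.34 on the left of control males. Again 1 male array lay inside the female range. The log2 difference was 0.58 ± 0.17, or 1.5-fold (limma adjusted p = 0.0389). Of 12930 probes 5.11% were called at an adjusted p below 0.05 in the sex difference of controls on the left, and of the 9 probes tested here 2 were, both TSPO. On the right the difference was -0.12 ± 0.17 and -0.20 ± 0.18, with adjusted p of 0.893 and 0.802.

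Arrays of 1 dye alone gave a larger TSPO difference on the left of controls. Using only Cy3 arrays on the left, it was 0.70 ± 0.17 (adjusted p = 0.0157) and 0.68 ± 0.18 (adjusted p = 0.0197). Without the 4 arrays that stood apart it was 0.60 ± 0.18 and 0.54 ± 0.19, and limma's adjusted p rose to 0.111 and 0.172. That fit left out 2 of the 5 female control left arrays and called 25 probes in place of 661. The call for probe 1 also ended without male control left replicate 3 (adjusted p = 0.0770) or 4 (0.0867), or female control left replicate 3 (0.0566) or 6 (0.0602). For probe 2 it ended without male control left replicates 2 (0.0611), 3 (0.0922) or 4 (0.137), or female control left replicates 3 (0.0770), 4 (0.0563) or 6 (0.09998). The difference stayed between 0.47 and 0.70 in every fit of either probe that left out 1 array.

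**Figure D2:**
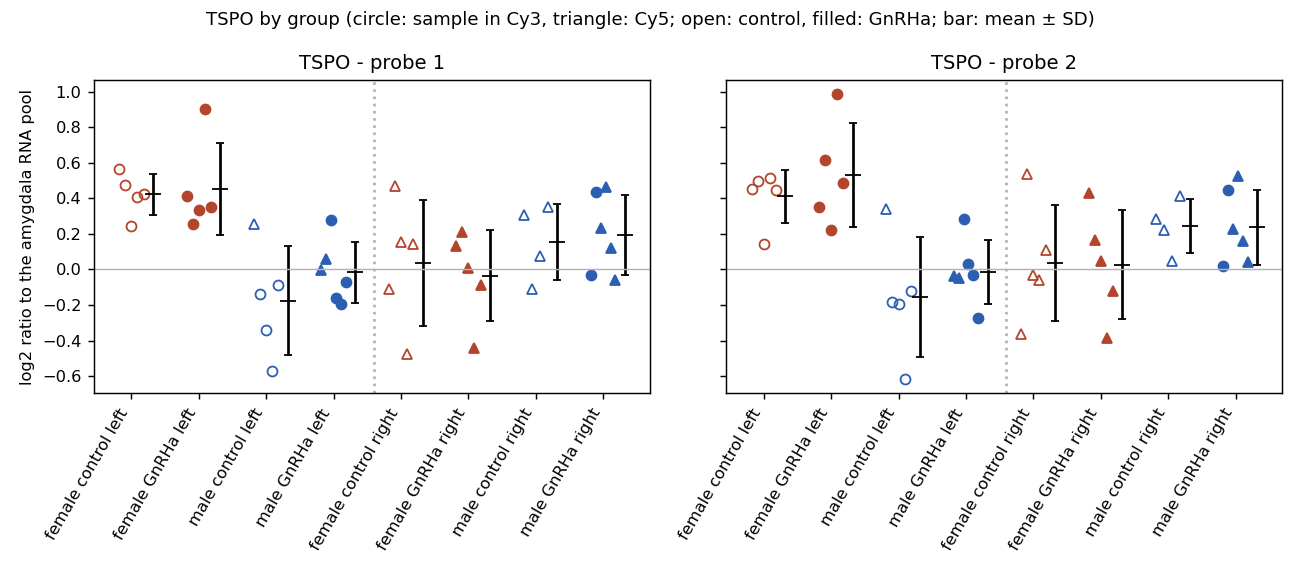
Log2 ratio to the amygdala pool (y axis) of TSPO probes 1 and 2 on each of the 41 arrays, by group (x axis), with dye shown by marker, treatment by filling and mean ± SD as bars. On the left the female arrays, at 0.24 to 0.90 for probe 1, lie above all but 2 of the 11 male arrays, while on the right the sexes overlap.

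With GnRHa the left TSPO values looked alike in direction and size. Female arrays read 0.26, 0.34, 0.35, 0.41 and 0.90 for probe 1, and male arrays ran from -0.20 through a median of -0.04 to 0.28. One male array reached into the female range. The log2 difference was 0.51 ± 0.16 for probe 1 (limma adjusted p = 0.0732) and 0.59 ± 0.17 for probe 2 (adjusted p = 0.0539), neither past the threshold. Without male GnRHa left replicate 3 they were 0.59 (0.0403) and 0.67 (0.0325), and 5 other single arrays each brought probe 2 past the threshold when left out. Without the 4 arrays that stood apart they were 0.40 ± 0.16 (0.211) and 0.46 ± 0.17 (0.176). On the right of treated animals it was -0.27 ± 0.16 and -0.24 ± 0.17 (adjusted p = 0.538 and 0.600), with females at -0.03 ± 0.26 and males at 0.19 ± 0.23 for probe 1.

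The difference between the sides was itself tested. In treated animals the right-side sex difference of TSPO less the left-side one was -0.78 ± 0.22 for probe 1 and -0.83 ± 0.23 for probe 2, with limma adjusted p of 0.0378 and 0.0355. In this comparison 5.15% of all probes were called, and 2 of the 9 probes tested here were, both again TSPO. Without treatment the same measure was -0.74 ± 0.23 and -0.78 ± 0.24 and did not pass (adjusted p = 0.0910 and 0.0853), where 0.998% of all probes were called. For probe 2 it passed without female control right replicate 2, at -0.89 (limma adjusted p = 0.0451), and with array weights, at -0.83 (0.0459). The comparisons in treated and in control animals come from 1 fit with a shared dye term, so they are not independent readings. With twin pair as a random block the values in treated animals were -0.79 (adjusted p = 0.0539) for probe 1 and -0.83 (0.0497) for probe 2.

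The calls between sides were close to the threshold. With arrays of 1 dye per side the values in treated animals were -0.71 ± 0.23 (adjusted p = 0.0608) and -0.74 ± 0.23 (0.0564), and without the 4 arrays that stood apart they were -0.74 ± 0.23 (0.0872) and -0.75 ± 0.24 (0.0951). The call for probe 1 ended without any 1 of 9 arrays, with adjusted p of 0.0542 to 0.0922: male control left replicate 1, male GnRHa left replicates 5, 6 and 7 and right replicate 5, and female GnRHa left and right replicates 6 and 7. For probe 2 it ended without any 1 of 10 arrays, with adjusted p of 0.0508 to 0.0860 among male GnRHa left replicates 5, 6 and 7, male GnRHa right replicates 5 and 7, female GnRHa left replicates 4, 6 and 7 and female GnRHa right replicates 6 and 7. The values themselves lay between -0.93 and -0.65 in every fit that left out 1 array.

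The same arrays, with the same fitted dye term, were also read within the animals that had both sides measured, control and treated together. In 8 of 8 females TSPO probe 1 was lower on the right than on the left, by -1.46 to -0.16 with a mean of -0.63 ± 0.42 (SD), once the fitted dye effect was taken off. In 8 males the right minus left difference ran from -0.16 to 0.56 with a mean of 0.16 ± 0.28, and it was positive in 5. Probe 2 was lower on the right in 8 of 8 females and higher in 6 of 8 males. Without the animals whose arrays stood apart, probe 1 was lower on the right in 6 of 6 females, by a mean of -0.51 ± 0.31, and probe 2 by -0.45 ± 0.26. Since left and right of females differ in dye throughout, the female side difference depends on the dye effect estimated in males. Averaged over sex and treatment, TSPO did not differ between the sides, at -0.18 ± 0.13 (adjusted p = 0.581) for probe 1, where 0.201% of all probes were called.

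**Figure D3:**
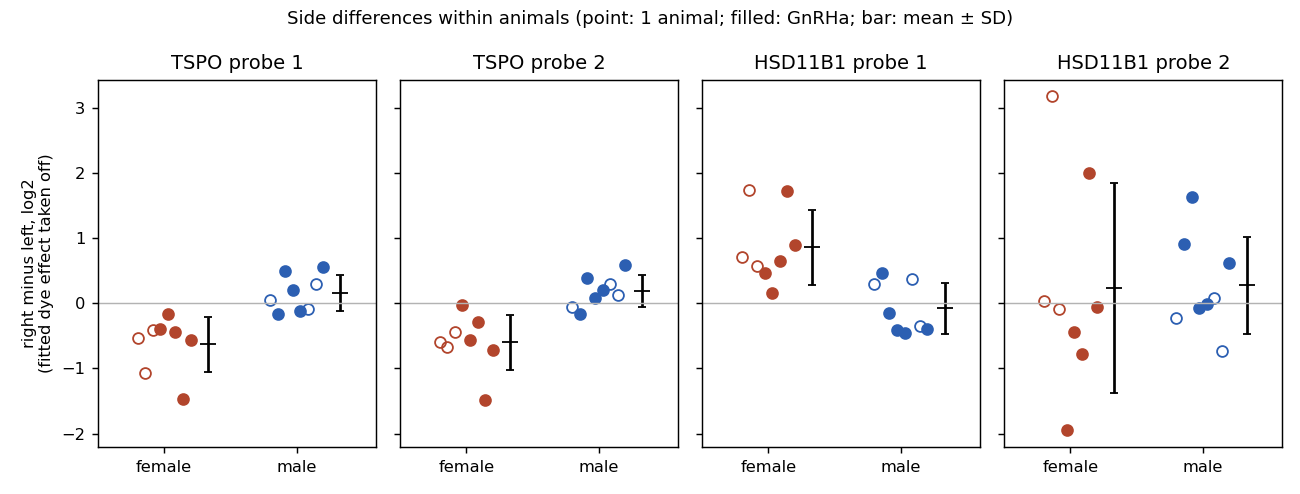
Right minus left difference in log2 ratio (y axis) within each of 8 females and 8 males, for both probes of TSPO and of HSD11B1, with the dye effect taken off. All 8 females lie below 0 for both TSPO probes and above 0 for HSD11B1 probe 1, while the males lie on both sides of 0 and HSD11B1 probe 2 shows no such pattern.

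TSPO did not change with GnRHa at a level that the test could call. In males probe 1 stood at 0.09 ± 0.22 with GnRHa (12 arrays) and -0.03 ± 0.31 without (9 arrays), a log2 difference of 0.11 ± 0.12 with a 95% interval of -0.14 to 0.36. In females the means were 0.21 ± 0.35 and 0.23 ± 0.32 (10 arrays each), a difference of -0.02 ± 0.12 with an interval of -0.27 to 0.23. The difference of these effects between the sexes was -0.13 ± 0.17 (limma adjusted p = 0.892). None of the 9 probes was called for a GnRHa effect in either sex, and limma called 0% of all probes in females and 0% in males, with 482 and 1513 of 12930 at an unadjusted p below 0.05.

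Because TSPO is used as a marker of microglia and astrocytes, the markers of these cells stand beside it. Of 19 microglial and macrophage genes listed, 8 had a named probe, and 6 of these 8 were higher in females on the left of controls, with a median log2 difference of 0.33 against 0.00 over all probes. In this comparison 5.11% of all probes were called. TYROBP, an adaptor of microglial receptors, was the 1 of these 8 called, at 0.48 ± 0.12 (limma adjusted p = 0.0167). Without the 4 arrays that stood apart it was at 0.43 ± 0.14 (0.129). With GnRHa, 6 of 8 were higher on the left with a median of 0.51 and none was called: CTSS, a lysosomal protease, was at 0.80 ± 0.24 (adjusted p = 0.0644) and FCER1G at 0.59 ± 0.18 (0.0663). TYROBP was then at -0.14 ± 0.11. For the sex difference between sides with GnRHa, where TSPO was called at -0.78 and -0.83, the microglial genes had 5 higher and 3 lower and a median of 0.02. In controls, where TSPO was not called, the same measure had 3 higher and 5 lower, with a median of -0.37. There 1 of the 8 was called, on the lower side, beside 0.998% of all probes. The mean over the 8 genes ran from -0.23 to 1.01 over female and -0.27 to 0.25 over male control left arrays, and from 0.06 to 0.41 over female and -0.37 to 0.21 over male GnRHa left arrays.

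The astrocyte list had 6 probes, of which 1 was higher in females on the left of controls and 6 with GnRHa, with none called. GFAP, the astrocytic filament protein, was at 0.39 ± 0.29 and 0.64 ± 0.28 in these comparisons, and AQP4, the water channel of astrocyte endfeet, at -0.09 ± 0.17 and 0.39 ± 0.17. Their means over the list were -0.50 to 0.38 over female and -0.18 to 0.65 over male control left arrays, and -0.15 to 0.40 over female and -0.58 to 0.44 over male GnRHa left arrays. Between sides with GnRHa 1 astrocyte gene was higher and 5 were lower, with a median of -0.48 and none called. Between sides in controls 6 were higher and 0 lower, with a median of 0.67 and none called. The part of these cell markers in the TSPO values was not tested. In tissue RNA, fewer cells of a type and less RNA per cell cannot be told apart.

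The 3 named genes whose values most resembled those of TSPO probe 1 over 41 arrays were PSMD4, a proteasome subunit (r = 0.72), CTSD, a lysosomal protease (r = 0.64), and ATP6V0C, a subunit of the vacuolar proton pump (r = 0.63). They were picked as the highest of 695 genes. The leading HSD11B1 probe had r = -0.67 with TSPO over the same arrays, while CYP17A1 had 0.23.

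HSD11B1 probe 1 showed the opposite arrangement to TSPO. On the left of treated females its log2 ratios were -1.42, -1.36, -0.78, -0.76 and -0.69. On the left of treated males they ran from -0.77 through a median of 0.10 to 0.54. Only male GnRHa left replicate 3, at -0.77, lay within the female range. The means were -1.001 ± 0.36 (n = 5) and 0.06 ± 0.51 (n = 6), and the log2 difference was -1.12 ± 0.28, a 2.18-fold lower value in females (limma adjusted p = 0.0323). In this comparison 2.19% of all probes were called, and HSD11B1 probe 1 was the only 1 of the 9.

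The other HSD11B1 probe did not show this. On the left of treated animals probe 2 stood at -0.24 ± 1.24 in females and -0.59 ± 0.64 in males, a log2 difference of 0.37 ± 0.50 (adjusted p = 0.695; 95% interval -0.65 to 1.38). That interval does not reach the value of probe 1. Female values of probe 2 ran from -2.23 to 0.90 and enclosed those of every male array. The probes were designed on 1 transcript record, so the difference holds for probe 1 and not for the gene as read by both.

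On the right of treated animals HSD11B1 probe 1 did not separate the sexes, at -0.12 ± 0.28 (adjusted p = 0.905). The difference between sides was 1.003 ± 0.38 and did not pass (adjusted p = 0.0974), and without male GnRHa left replicate 3 it was 1.26 and passed (0.0377). In controls the left female values were -1.30, -1.28, -0.60, -0.41 and -0.04, and the left male values were -0.86, -0.61, -0.30, -0.07 and 0.49. These groups overlapped widely, with a log2 difference of -0.51 ± 0.28 (adjusted p = 0.290), and of -0.19 ± 0.32 without the 4 arrays that stood apart. Once the fitted dye effect was taken off, the right exceeded the left within animals in 8 of 8 females and in 3 of 8 males. The female differences ran from 0.16 to 1.74, with a mean of 0.87 ± 0.58. Without the animals whose arrays stood apart the right was higher in 6 of 6 females, by 0.75 ± 0.54. Since left and right of females differ in dye throughout, these female counts and means depend on the dye effect estimated in males.

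The HSD11B1 call depended on a few arrays. Without the 4 arrays that stood apart it was -1.01 ± 0.29 (adjusted p = 0.0933), and with Cy3 arrays alone on the left -1.15 ± 0.31 (adjusted p = 0.0724). It ended as well without male GnRHa left replicate 1 (adjusted p = 0.0501), 5 (0.0656), 6 (0.0825) or 7 (0.0715), or without female GnRHa left replicate 4 (0.0556), 6 (0.109) or 7 (0.0871), at values of -1.19 to -1.01. Male GnRHa left replicate 6 was 1 of the 3 turned arrays.

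**Figure D4:**
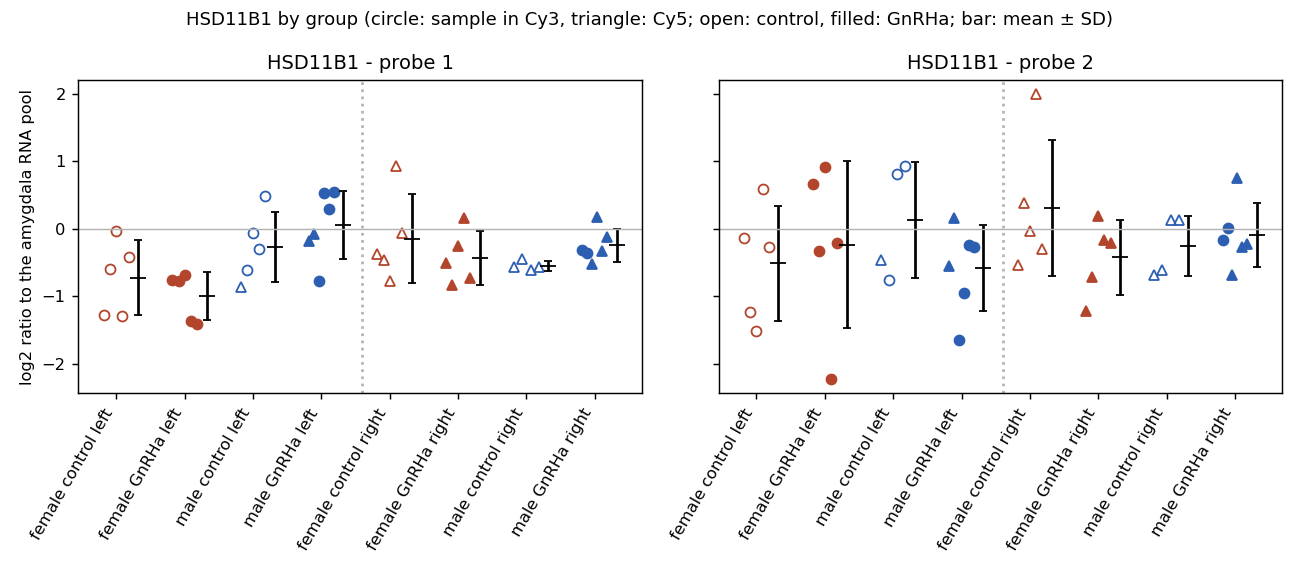
Log2 ratio to the amygdala pool (y axis) of HSD11B1 probes 1 and 2 by group (x axis), with dye shown by marker, treatment by filling and mean ± SD as bars. For probe 1 the treated females lie at -1.42 to -0.69 on the left, below all but 1 treated male array, and probe 2 shows no separation.

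GnRHa itself did not change HSD11B1 past the threshold. Probe 1 stood at -0.72 ± 0.46 in treated and -0.44 ± 0.65 in control females, and at -0.10 ± 0.41 in treated and -0.40 ± 0.40 in control males. The log2 difference was -0.27 ± 0.21 in females, with a 95% interval of -0.70 to 0.15. In males it was 0.28 ± 0.21 (limma adjusted p = 0.638). They pointed in opposite directions, and the test of that difference gave -0.56 ± 0.29 (adjusted p = 0.666), where limma called 0% of all probes and 995 had an unadjusted p below 0.05. Probe 2 was at -0.22 ± 0.38 and -0.28 ± 0.39, so in males the probes disagreed in sign.

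RPL6, a ribosomal protein gene, resembled HSD11B1 probe 1 most (r = 0.75 over 41 arrays), followed by HACD1, an enzyme of fatty acid elongation (r = 0.66), and SLC17A5, a lysosomal sialic acid carrier (r = 0.64). They were picked as the highest of 695 genes. Of 28 listed genes of cortisol metabolism and response, 8 were tested. On the left of treated animals 7 of these 8, HSD11B1 probe 1 among them, were lower in females. The median log2 difference was -0.24 against 0.00 over all probes, and HSD11B1 was the 1 called. PER1, a clock gene that glucocorticoids induce, was at -1.69 ± 0.61 (adjusted p = 0.111). POMC, the precursor of corticotropin, was at -0.61 ± 0.24 (0.133). The glucocorticoid receptor gene NR3C1 was at -0.70 ± 0.25 on the left of controls (0.0921), where 5 of 8 were lower and none was called. On the right of treated animals 4 of the 8 were higher and 4 lower, with a median of -0.03 and none called.

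CYP17A1 probe 1, the mean of 5 spots, had the lowest SD between arrays of the 9 tested probes, at 0.22. Probe 2 of this gene, read on 26 arrays and not tested, had an SD of 0.95. Probe 1 group means lay between -0.27 and 0.14, and no neighbours in their order were further apart than the larger of their SDs. With GnRHa it was at -0.02 ± 0.25 in females against -0.13 ± 0.19 without, and at 0.01 ± 0.17 in males against -0.11 ± 0.27. The log2 differences were 0.11 ± 0.10 in females and 0.12 ± 0.10 in males, with 95% intervals of -0.09 to 0.31 and -0.07 to 0.32. Twins were also compared on the same side, with the fitted dye effect taken off. The treated twin was higher in 6 of 8 female and 5 of 6 male pairs of arrays. These come from 5 twin pairs in each sex, some counted on both sides. Sex differences were -0.01 ± 0.10 in controls and -0.03 ± 0.09 with GnRHa, where 1.04 and 0.155% of all probes were called and none of the 9. Most alike in pattern were GKN1, known from the stomach lining (r = 0.52 over 26 arrays), the casein kinase gene CSNK1E (r = 0.51) and YWHAE, which encodes a phosphoserine-binding adaptor (r = 0.49, both over 41 arrays). They were picked as the highest of 695 genes.

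CYP11A1 probe 1 was read on 2 to 4 arrays of each group. The left of control males stood highest, with 4 arrays at 0.85 to 2.26 and a mean of 1.496 ± 0.58. Of the other 7 groups none had a mean above -0.04, and treated males on the left ran from -1.66 to 2.38. The log2 difference of treated from control males on the left was -1.59 ± 0.89 (limma adjusted p = 0.415), and that of control females from control males on the left was -1.73 ± 1.03 (0.352). These differences were larger in size than those of TSPO and did not pass, since intervals such as -3.46 to 0.29 for the first include 0. The nuclear lamina gene LMNB1, the ribosomal gene RPS25 and SGP-1 were most alike, with r of 0.59 to 0.62 over 20 to 23 arrays. They were picked as the highest of 575 genes.

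CYP19, the aromatase gene, was not called for GnRHa by any of its probes. In males probe 1 stood at 0.07 ± 1.16 with GnRHa (8 arrays) and 1.08 ± 0.48 without (4 arrays), a log2 difference of -1.17 ± 0.73 (limma adjusted p = 0.570). Probe 3 pointed the same way at -1.08 ± 0.54 (0.448), with 9 of 10 treated arrays below the control mean, and probe 2 the other way at 0.28 ± 0.70 (0.926). On the left of males all 3 probes were lower with GnRHa, and probe 3 was at -0.98 ± 0.66 in 6 treated and 0.47 ± 0.71 in 3 control arrays, a difference of -1.69 ± 0.70 (adjusted p = 0.254). There probe 1 differed by -1.65 ± 0.81 (0.345) and probe 2 by -0.83 ± 1.05 (0.760). In females the 3 probes were at 0.17 ± 0.72, 0.39 ± 0.66 and -0.08 ± 0.58. The 95% interval for GnRHa in males was as wide as -2.71 to 0.37 for probe 1. ACAS2, the growth factor gene BMP7 and the integrin gene ITGAV most resembled probe 1, with r of 0.55 to 0.62 over 20 to 23 arrays. They were picked as the highest of 570 genes.

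**Figure D5:**
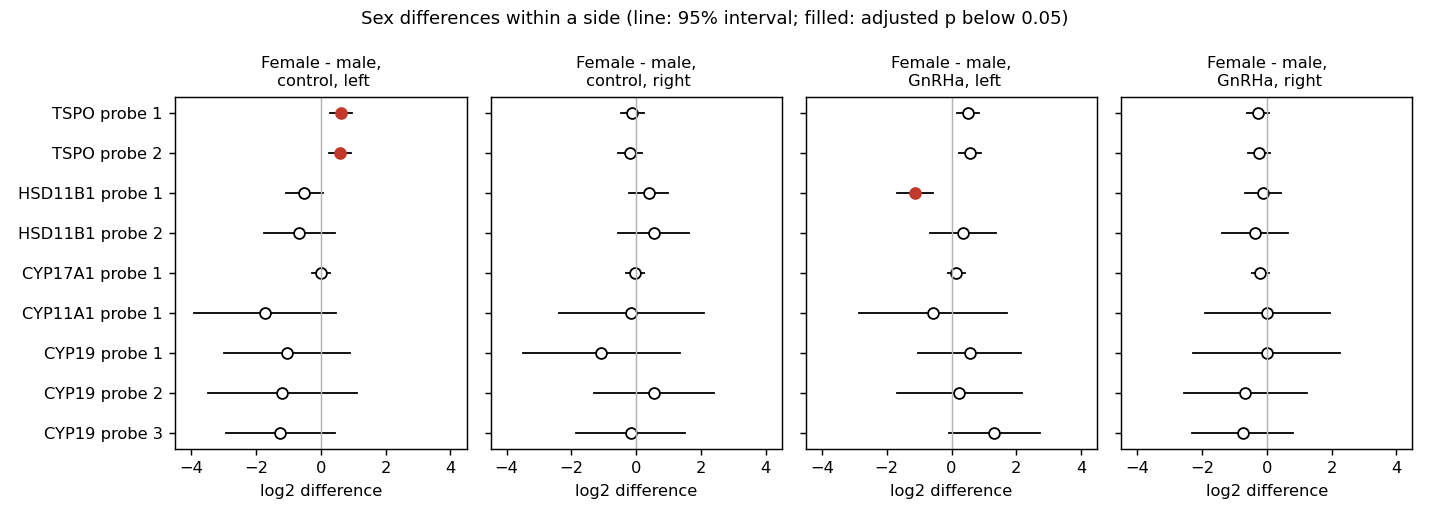
Female minus male log2 differences (x axis) of the 9 tested probes, with 95% intervals as lines, within each side and treatment. Filled points mark the 3 differences with a limma adjusted p below 0.05, TSPO at 0.63 and 0.58 on the left of controls and HSD11B1 probe 1 at -1.12 on the left of treated animals, and the CYP11A1 and CYP19 intervals are the widest.

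Over all 18 comparisons, 5 of 162 tests of these probes were called. TSPO probes 1 and 2 were called for sex on the left of controls, where 5.11% of all probes were called. Both were also called for the sex difference between sides with GnRHa (5.15% of all probes). These TSPO probes had r = 0.90, so their calls are not separate readings. HSD11B1 probe 1 was called for sex on the left with GnRHa (2.19% of all probes). Neither CYP11A1, CYP17A1 nor CYP19 was called in any comparison. In the remaining comparisons none of the 9 probes was called. Of all probes, 0.0773% were called for sex on the right of controls and 0.0309% on the right with GnRHa. For GnRHa within a side, limma called 0% in females on either side, 0.363% in males on the left and 0.0309% on the right. For the difference of the GnRHa effect between sides it called 0.00773% in females and 0.155% in males.

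The rest of the steroid synthesis pathway was thinly covered. Of 40 listed genes 7 had a named probe. They were TSPO, CYP11A1, CYP17A1 and CYP19 beside STAR, CYP11B1 and NR5A1, and TSPO was the only one called in any of the 18 comparisons. CYP11B1, which makes cortisol in the adrenal, was at -1.26 ± 0.41 for females against males on the left with GnRHa (limma adjusted p = 0.0792). Its probe was dim, at a brightness of 5.31, with values on 40 arrays. Among cholesterol genes 6 of 35 were on the array, and 6 of 6 were higher in control females than in control males, with a median log2 difference of 0.19 against 0.00 over all probes. TM7SF2, a reductase of late sterol synthesis, was the one called, at 0.48 ± 0.12 (adjusted p = 0.0448), and on the left at 0.66 ± 0.16 (0.0167). Of all probes, 1.04% were called for sex in controls and 5.11% on the left. Without the 4 arrays that stood apart TM7SF2 was at 0.39 ± 0.12 (0.152) and 0.47 ± 0.17 (0.185). The progesterone receptor gene PGR was at -1.76 ± 0.64 for females against males on the left with GnRHa and was not called (adjusted p = 0.112). Its probe was dim as well, at 5.37, with values on 30 arrays.

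In the authors' deposited table of each group against the pool, 2 of the 11 probes had an adjusted p below 0.05, each in the left amygdala of treated females, where 5.75% of the 15208 spots in that table had one. TSPO probe 2 had a log2 fold change of 0.26 there in the authors' deposited table (adjusted p = 0.0195). HSD11B1 probe 1 had -0.30 in the authors' deposited table (adjusted p = 0.0326), and TSPO probe 1 had 0.25 (0.122). For that group the means over the 5 arrays used here were 0.53 for TSPO probe 2 and -1.001 for HSD11B1 probe 1. The authors' values set a group against the pool, not females against males, and come from the same series. They are therefore not a separate reading of the sex differences.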

How the data were processed

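The members and gene lists were chosen with earlier results of these data known. The deposited values per sample are log2 ratios of a sample to the pool, read by the submitters from scans with Agilent Feature Extraction 9.1, per the labels. Their background correction, normalization and direction are not given in the sources used here, and medians of the used arrays lay between -0.02 and 0.03. The authors also deposited, for each group against the pool, a log2 fold change, a moderated score, p-values and a mean log2 brightness. Arrays with a spike-in slope under 0.5 in absolute size were left out (largest 0.208, against 1.13 to 1.26 for those used), and those with a negative slope were turned, with their dye taken as the opposite of the label. Spots of a probe were averaged.

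Of 15008 probes, 831 genes had a name, 737 of them tested. limma 3.58.1 in R 4.3.3 fitted 8 group means and dye, with animal as a random block (correlation 0.147). Tests were two-sided, with p-values adjusted by Benjamini and Hochberg over 12930 probes and a threshold of 0.05. Signs are coded as female less male, treated less untreated, and right less left. Intervals use limma's degrees of freedom. Where the fit lacked a value, that array was dropped for that probe. The fit was tested on simulated data: for sex on the left of controls it called 46% of changes of 1 and 8% of changes of 0.5 on the log2 scale, among 12930 probes.

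The labels give the twin pairs. Over 14 same-side pairs of twin arrays, deviations from group means were compared with the fitted dye effect taken off. They correlated at -0.10 to 0.25 (median -0.01), with 6 pairs over 0.1. Alternatives were all 56 arrays, turned arrays left out or given their label's dye, no dye term, twin pair as a random or fixed block, scaling, fully measured probes, array weights, single-array omissions with the block correlation held, and, chosen after seeing the data, arrays of 1 dye per side and omission of the 4 arrays that stood apart. The genes named were the member probes, the 3 most alike genes per member, and some list genes that passed or had the lowest p or highest brightness. Not every list gene that passed is named. Those not named include 1 microglial gene for sex with GnRHa. They also include 1 endothelial or mural gene each for sex in controls, right against left, and sex between sides with GnRHa. The endothelial, blood and choroid plexus lists are not reported further. No sequences are shown.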

Additional observations from a re-analysis of the deposited data

Results flagged for a closer look

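Where a group held 4 to 6 values, 58 combinations of probe and group were examined for an array far from the others, and 3 had one. Chance gives about 1 in 20 such combinations, which is near the share found. TSPO probe 1 in female GnRHa left replicate 6 was at 0.90, while the other 4 arrays were at 0.26 to 0.41. This array is 1 of the 4 that stood apart on the principal component analysis. TSPO probe 2 in female control left replicate 5 was at 0.15 and the other 4 at 0.45 to 0.51. CYP19 probe 2 in female GnRHa left replicate 5 was at -2.29, in a group with 4 values and a median of -0.50.

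The sex difference of TSPO differed between the sides in treated animals by the test of that difference itself, at -0.78 for probe 1 and -0.83 for probe 2. Controls had values close to these that did not pass, except for probe 2 with array weights or without female control right replicate 2. The calls in treated animals were also lost when certain single arrays were left out, as given above.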

How the results depend on the processing

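No log2 difference of a member changed sign in a called test. Of 7840 member values under the alternatives, 7767 kept their direction and side of the threshold or were uncalled in both, 59 lost a call and 14 gained one. With all 56 arrays as labelled, HSD11B1 probe 1 on the left with GnRHa was -0.63 (adjusted p = 0.537), TSPO on the left of controls 0.43 (0.452) and 0.60 (0.115), and TSPO between sides with GnRHa -0.69 (0.545) and -0.50 (0.586), all uncalled. With turned arrays left out, HSD11B1 was -1.08 (0.0946) and TSPO between sides -0.77 (0.0951) and -0.87 (0.0798). With the label's dye for turned arrays these were -1.11 (0.0512), -0.75 (0.0782) and -0.84 (0.0632). Scaling left TSPO in controls at 0.56 (0.0589) and 0.52 (0.0788), and array weights left probe 2 at 0.60 (0.0564). Array weights brought HSD11B1 probe 1 past the threshold over both sides with GnRHa, at -0.72 (0.0413), and TSPO on the left with GnRHa at 0.47 (0.0152) and 0.58 (0.00592). They also brought TSPO probe 2 between sides in controls past it, at -0.83 (0.0459). With arrays of 1 dye per side, HSD11B1 was -1.15 and TSPO between sides -0.71 and -0.74. Without the 4 arrays that stood apart, HSD11B1 was -1.01, TSPO in controls 0.60 and 0.54, and TSPO between sides -0.74 and -0.75. The cause of these changes was not tested.

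Twin pair as a random block gave -0.79 for TSPO probe 1 between sides with GnRHa (adjusted p = 0.0539) and called 1 probe for GnRHa in females, 62 for GnRHa in males and 36 for sex with GnRHa. It changed no other call of a member. Twin pair as a fixed block called 1 probe for the interaction and 0 for right against left, and cannot give sex differences, since pairs lie within a sex.

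Counts over all probes moved more. GnRHa in males called 0 in the analysis reported, 17 with the label's dye, 9 after scaling, 11 among fully measured probes, 113 with array weights and 62 with 1 dye per side. Sex in controls (134) fell to 2 with all arrays, 77 without turned arrays, 29 after scaling and 17 without the 4 arrays that stood apart, and rose to 208 among fully measured probes, 281 with array weights and 288 with 1 dye per side. Sex with GnRHa (20) became 3, 4, 50, 105, 3 and 4 with all arrays, no turned arrays, scaling, array weights, 1 dye per side and without the 4 arrays. Right against left (26) became 0 with all arrays and among fully measured probes, 17 without turned arrays, 2 with the label's dye, 557 with no dye term, 42 after scaling, 61 with array weights and 13 without the 4 arrays, and was not run with 1 dye per side.

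Leaving out 1 array at a time gave 0 to 3 calls for GnRHa in females (most without female control left replicate 4) and 0 to 154 in males (most without male control right replicate 5). Sex in controls had 9 (male control right replicate 3 left out) to 351 (male control left replicate 1). Sex with GnRHa had 4 (male GnRHa left replicate 1) to 65 (female GnRHa right replicate 5), and right against left had 2 without male GnRHa right replicate 2 and 51 without male control right replicate 5. HSD11B1 probe 1 ran from -1.34 to -1.01 on the left with GnRHa. TSPO on the left of controls ran from 0.53 to 0.70 and 0.47 to 0.68, and between sides with GnRHa from -0.88 to -0.65 and -0.93 to -0.70. Low signal limits CYP11A1 and CYP19, and no spot could be set against its background.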

Other observations

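A pair of probes had too few values for a test. CYP17A1 probe 2 was read on 26 arrays, from -2.27 to 2.13, with 1 array each for left and right control males, at 0.16 and 0.42. The 5 right control females were lowest, at a mean of -0.87 ± 0.91, and the 4 right treated males highest, at 0.99 ± 0.82. CYP11A1 probe 2 was read on 26 arrays, from -2.27 to 2.99, and the only left control male array was at 0.91. Probe 1 of that gene also stood above 0 in the left control males.

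Differences within twins of the same side were taken with the fitted dye effect removed. Treated males exceeded their control twin for TSPO in 5 of 6 pairs of arrays, from 5 twin pairs, by either probe. The means were 0.28 ± 0.40 and 0.21 ± 0.37. Treated females did so in 3 of 8 pairs of arrays, also from 5 twin pairs, by probe 1 and in 6 of 8 by probe 2. HSD11B1 probe 1 was lower in the treated female in 6 of 8 pairs, by a mean of -0.44 ± 0.74, and higher in the treated male in 4 of 6, by a mean of 0.17 ± 0.46.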
